A study of Mus musculus with 15 samples.

Results

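Mitochondrial biogenesis regulators were read in donor CD4+ T cells recovered from mice with transfer colitis, as 10 genes: Ppargc1a, Ppargc1b, Pprc1, Tfam, Nrf1, Gabpa, Esrra, Polg, Tfb1m and Tfb2m. These 10 genes were picked by symbol for their known role downstream of AMP-activated protein kinase (AMPK), out of 55421 genes in the count files, of which 39155 had a read in at least 1 library. Of the 9 that could be tested, 0 passed the test between KO and WT T cells in spleen or in mesenteric lymph nodes (mLN). Of all genes tested, 1.3% passed in spleen and 0.641% in mLN, so a count of 0 is close to the background. Between organs, Pprc1 and Polg were lower in mLN than in spleen T cells of both genotypes, and no member was called higher there. Of all genes, 10.8% were called lower and 9.7% higher in WT, and 13.9% lower and 11.4% higher in KO. With an offset for GC content and length, Pprc1 in WT (log2 fold change -0.40, adjusted p = 0.0517) and Polg in KO (-0.24, adjusted p = 0.129) were not called. Ppargc1a, the most studied member, had between 0 and 10 reads a library.

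Naive CD4+CD25-CD44-CD62L+ T cells on the C57BL/6 background came from donors of genotype Prkaa1 fl/fl (WT) or CD4-Cre Prkaa1 fl/fl (KO). They were injected into recipients lacking Rag2, which make no T or B cells of their own, and CD4+ T cells were sorted from spleen and mLN 6 weeks later. Mice of this study were used at 6 to 8 weeks of age. Prkaa1 encodes AMPK alpha1, and CD4-Cre deletes the floxed allele from the thymocyte stage that carries both CD4 and CD8. WT donors carried no Cre, so the presence of Cre and the loss of Prkaa1 cannot be told apart. The 15 libraries were 4 of WT spleen, 4 of KO spleen, 3 of WT mLN (replicates 1, 2 and 4) and 4 of KO mLN. The study gives the replicates as mice of a single experiment, and does not state whether spleen and mLN samples of the same number came from the same mouse.

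Each library held 9363940 to 11283439 reads on genes, and 58.4 to 63.4% of uniquely mapped reads fell on no annotated gene. Prkaa1 checked the labels: it averaged 50.4 ± 3.24 CPM (counts per 1000000, scaled by TMM; SD, n = 4) in WT spleen against 20.1 ± 1.16 (n = 4) in KO spleen, and 54.3 ± 5.57 (n = 3) in WT mLN against 28.0 ± 5.34 (n = 4) in KO mLN, with no overlap in either organ. Its log2 fold change was -1.33 in spleen (adjusted p = 7.63e-05) and -0.95 in mLN (adjusted p = 0.0372), by the quasi-likelihood test of edgeR with Benjamini-Hochberg adjustment over all genes tested, which is the test used for every adjusted p given here unless another is named. Prkaa1 was itself called higher in KO mLN than in KO spleen, with no overlap (log2 fold change 0.46, adjusted p = 0.0361). It was not called between organs in WT (0.10, adjusted p = 0.53), and its genotype by organ interaction was not called (adjusted p = 0.9998). Prkaa2, the gene of the other catalytic subunit, had at most 1 read in any library. Summed T cell markers ranged from 6734 to 9468 CPM over all libraries. Myeloid markers summed to 237 to 642 CPM in WT spleen, 216 to 675 in KO spleen, 118 to 296 in WT mLN and 113 to 127 in KO mLN, and erythroid markers to 90.6 to 1906, 40.9 to 107, 21.6 to 815 and 17.8 to 71.6 CPM in the same order. B cell markers summed to 48.97 to 176, 39.8 to 125, 180 to 549 and 205 to 302.5 CPM, and CD8 T cell markers to 2.58 to 4.97, 1.57 to 4.43, 7.33 to 11.5 and 19.6 to 28.4 CPM. Most of the CD8 sum in KO mLN was Cd8a, at 18.6 ± 3.15 CPM (SD, n = 4). Of the 2 CD8 T cell markers, 1 had a negative log2 fold change of KO over WT in mLN, and 0 were called. In bulk libraries such as these, fewer cells of a type and less RNA per cell cannot be told apart.

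Mitochondria are built from proteins of nuclear and mitochondrial genomes, and the PGC-1 coactivators coordinate both. PGC-1alpha (Ppargc1a), PGC-1beta (Ppargc1b) and PRC (Pprc1) bind nuclear factors, among them NRF1, the ETS factor GABP, whose DNA-binding subunit is Gabpa, and the orphan receptor ERRalpha (Esrra), which switch on genes of the respiratory chain and of mitochondrial DNA upkeep. Tfam packages mitochondrial DNA and starts its transcription together with Tfb2m, Tfb1m methylates the ribosomal RNA of the mitochondrial small subunit, and Polg is the catalytic subunit of the mitochondrial DNA polymerase. In muscle and other tissues AMPK is known to act on this programme through PGC-1alpha, and T cells enlarge their mitochondrial mass when they leave quiescence.

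Promoter sequence was taken from RefSeq windows of 300 bases (250 before the transcription start and 50 after, build GRCm38.p6), which were matched for 9 of the 10 members and read here for 4 motifs on both strands. Shown are the 250 bases upstream, on the coding strand, of Tfam and Polg, which hold the ETS motif CCGGAAGT that GABP is known to bind, and of Pprc1, the member with the lowest mLN to spleen ratio in KO T cells, which holds none of the motifs. Capitals mark the motif.
Tfam (chr10:71238045-71238294, minus strand): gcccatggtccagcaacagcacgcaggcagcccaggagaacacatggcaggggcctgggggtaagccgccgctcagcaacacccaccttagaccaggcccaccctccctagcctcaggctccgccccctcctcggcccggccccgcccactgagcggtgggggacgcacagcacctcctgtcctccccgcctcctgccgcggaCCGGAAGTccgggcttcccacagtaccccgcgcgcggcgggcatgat
Polg (chr7:79466274-79466523, minus strand): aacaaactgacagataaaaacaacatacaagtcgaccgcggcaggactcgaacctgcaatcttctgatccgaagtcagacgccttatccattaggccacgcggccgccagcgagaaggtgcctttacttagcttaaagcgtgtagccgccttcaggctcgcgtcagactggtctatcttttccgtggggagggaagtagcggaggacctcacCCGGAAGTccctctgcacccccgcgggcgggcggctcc
Pprc1 (chr19:46056289-46056538, plus strand): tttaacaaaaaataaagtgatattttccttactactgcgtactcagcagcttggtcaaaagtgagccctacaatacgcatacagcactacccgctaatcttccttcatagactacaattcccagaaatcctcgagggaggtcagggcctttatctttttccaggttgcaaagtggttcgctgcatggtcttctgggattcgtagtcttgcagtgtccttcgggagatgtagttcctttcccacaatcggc
The first base of the motif lies at -47 in Tfam and at -38 in Polg, counted from the start site. Of 32851 such windows over all genes, 3.887% held this motif, so a match is common enough to be read as a description only. The NRF1 core GCGCATGCG, found in 1.75% of windows, was matched in Tfb2m alone of the members read, with its first base at position 13 after the start. The ERR motif TCAAGGTCA (0.4231% of windows) and the cyclic AMP element TGACGTCA (1.79%) were in none of the members' windows that were read. The Pprc1 window lies inside the GENCODE gene (chr19:46044886-46072915), since RefSeq places the transcription start further in.

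Levels between genes were compared as CPM per kilobase of merged exon. In WT spleen the order was Gabpa (16.8 ± 1.03, SD, n = 4), Tfam (12.97 ± 0.888), Nrf1 (10.9 ± 0.499), Polg (8.79 ± 0.452), Pprc1 (8.67 ± 0.772), Ppargc1b (3.95 ± 0.991), Esrra (3.86 ± 0.338), Tfb2m (3.35 ± 0.429), Tfb1m (1.46 ± 0.0754) and Ppargc1a (0.00392 ± 0.00784). Polg and Pprc1 overlapped each other there, as did Ppargc1b, Esrra and Tfb2m, and the other neighbours in the order did not. KO spleen T cells had the same leading genes, with Gabpa at 17.98 ± 0.782 and Tfam at 12.8 ± 0.62 CPM per kilobase (n = 4). In WT mLN Tfam (14.8 ± 1.70, n = 3) stood above Gabpa (13.6 ± 1.13), but their libraries overlapped. In KO spleen Nrf1 (10.7 ± 0.465) and Pprc1 (9.52 ± 0.622) overlapped as well. In KO mLN Gabpa led again at 15.97 ± 1.68 CPM per kilobase (n = 4). Gabpa, Tfam and Nrf1 thus had the 3 highest means of the set in every group, and the PGC-1 coactivators ranked from the middle (Pprc1) to the bottom (Ppargc1a).

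**Figure D1:**
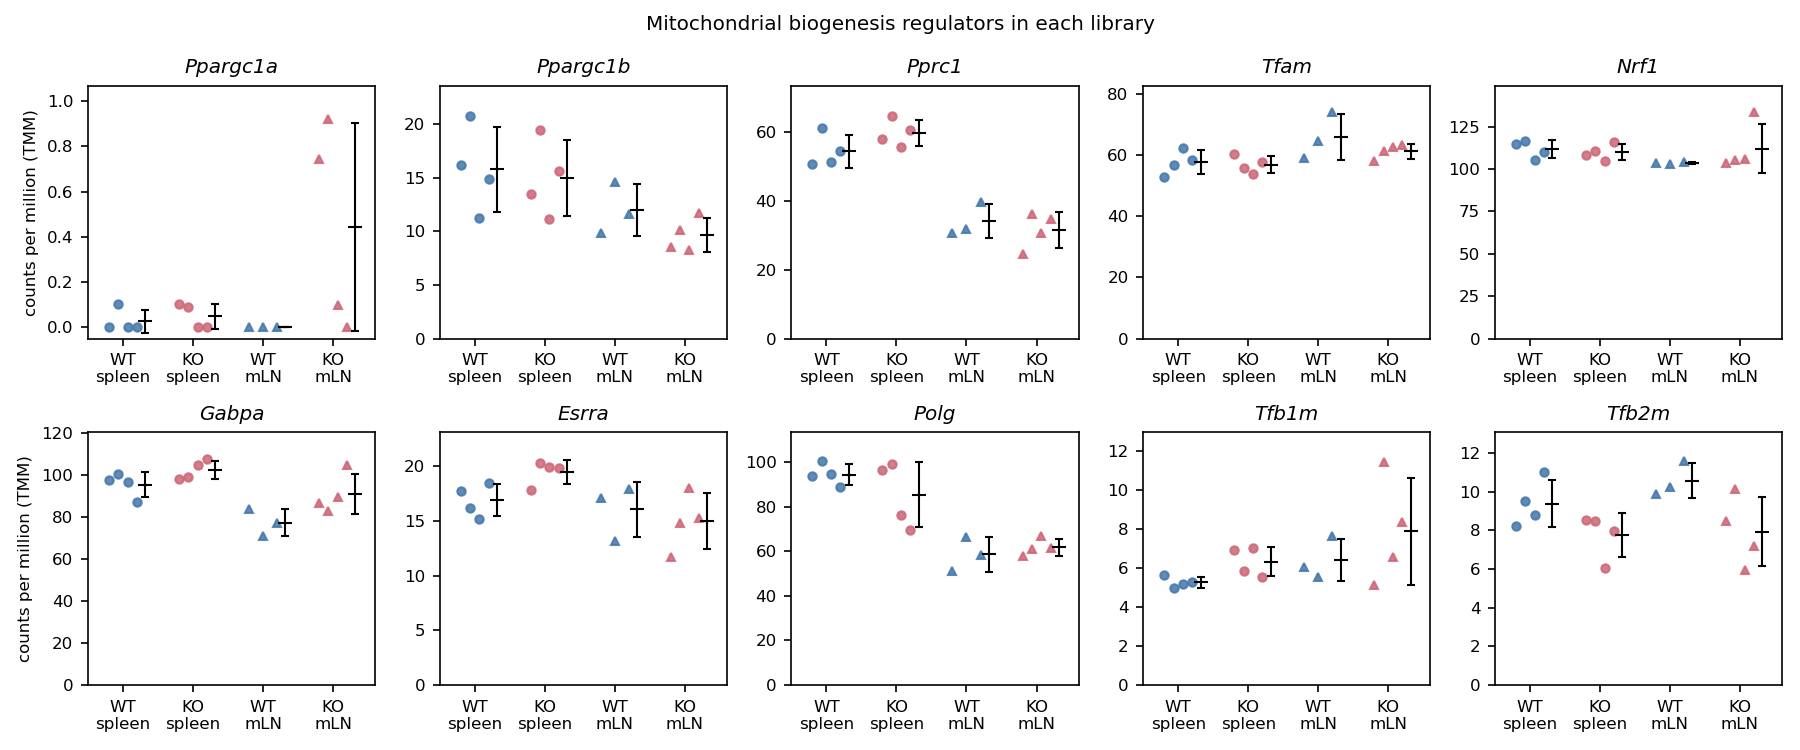
CPM (TMM-scaled over all 15 libraries, axis from or just below 0) of the 10 regulators in each library, 1 panel a gene; circles are spleen, triangles mLN, blue WT and red KO, and black marks give the mean ± SD. Pprc1 and Polg lie lower in mLN than in spleen in both genotypes, and Ppargc1a is near 0 outside KO mLN replicates 1 and 2.

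Among the coactivators, Ppargc1a had raw counts of 0, 1, 0 and 0 in WT spleen replicates 1 to 4, 1, 1, 0 and 0 in KO spleen, 0, 0 and 0 in WT mLN, and 8, 10, 1 and 0 in KO mLN. Its 19 reads in KO mLN came almost wholly from replicates 1 and 2, and replicate 4 had none, so the groups overlapped. The gene did not pass the filter on low counts and was not tested. With no filter, the adjusted p of KO against WT in mLN was 0.121, and 0.844 in spleen. DESeq2 gave an unadjusted p of 0.0328 in mLN and no adjusted p. Outside KO mLN replicates 1 and 2 every library held 0 or 1 read, under the limit of 3 reads that a count of 0 allows, so Ppargc1a was not detectable there at this depth.

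Ppargc1b, the close relative of PGC-1alpha, had 16.2, 20.8, 11.2 and 14.9 CPM in WT spleen and 13.5, 19.5, 11.2 and 15.7 CPM in KO spleen. In mLN it had 9.81, 14.6 and 11.6 CPM in WT and 8.57, 10.1, 8.23 and 11.7 CPM in KO. WT and KO libraries overlapped within each organ, and the lowest spleen libraries of both genotypes reached into the mLN range. Its log2 fold change of KO over WT was -0.08 in spleen (adjusted p = 0.874) and -0.31 in mLN (adjusted p = 0.562).

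Pprc1, which encodes a coactivator induced early when cells enter growth, had 50.7, 61.3, 51.3 and 54.5 CPM in WT spleen and 57.9, 64.8, 55.7 and 60.8 CPM in KO spleen. In WT mLN it had 30.8, 31.7 and 39.8 CPM, and in KO mLN 24.5, 36.2, 30.7 and 34.8 CPM. All 7 mLN libraries lay below all 8 spleen libraries. Between genotypes it overlapped, with log2 fold changes of 0.13 in spleen (adjusted p = 0.386) and -0.11 in mLN (adjusted p = 0.804).

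Of the DNA-binding factors, Nrf1 had 115, 117, 105 and 110 CPM in WT spleen, 109, 111, 105 and 116 in KO spleen, 104, 103 and 104 in WT mLN, and 104, 105, 106 and 134 in KO mLN. Replicate 4 of KO mLN stood above all other libraries. Its KO over WT log2 fold change was -0.03 in spleen, with a 95% interval of the fold of 0.896 to 1.08, the narrowest of the set, and 0.12 in mLN with an interval of 0.919 to 1.28. Gabpa had 97.6, 101, 96.5 and 87.0 CPM in WT spleen, 98.1, 99.0, 105 and 107 in KO spleen, 83.8, 71.0 and 76.9 in WT mLN, and 86.6, 82.8, 89.3 and 105 in KO mLN. In mLN 3 of the 4 KO libraries were above the highest WT library, and the groups overlapped by 1 library; the log2 fold change was 0.23 (adjusted p = 0.334). Esrra had 17.8, 16.2, 15.2 and 18.5 CPM in WT spleen and 17.8, 20.3, 19.9 and 19.8 in KO spleen. In mLN it had 17.1, 13.2 and 17.9 CPM in WT and 11.7, 14.9, 18.04 and 15.3 in KO. Its spleen log2 fold change of 0.20 had the lowest adjusted p of the set there, 0.303, with an interval of the fold from 0.981 to 1.34.

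For the factors that act inside the organelle, Tfam had 52.8, 56.8, 62.3 and 58.4 CPM in WT spleen, 60.2, 55.7, 53.7 and 57.6 in KO spleen, 59.0, 64.6 and 74.0 in WT mLN, and 57.9, 61.1, 62.6 and 63.3 in KO mLN. The 4 groups of Tfam all overlapped, and KO over WT was -0.02 on the log2 scale in spleen and -0.11 in mLN. Polg had 93.9, 101, 94.5 and 88.6 CPM in WT spleen and 96.5, 99.3, 76.5 and 69.4 in KO spleen. In mLN Polg had 51.0, 66.4 and 58.4 CPM in WT and 57.8, 61.1, 67.0 and 61.5 in KO, again with all 7 mLN libraries below all 8 spleen libraries. The least counted of the tested members were Tfb1m, with 48 to 124 reads a library, and Tfb2m, with 60 to 114. Tfb1m ranged from 4.96 to 5.62 CPM in WT spleen, 5.52 to 7.01 in KO spleen, 5.52 to 7.63 in WT mLN and 5.13 to 11.4 in KO mLN. Tfb2m ranged from 8.21 to 11.01, 6.07 to 8.56, 9.90 to 11.6 and 5.95 to 10.1 CPM in the same order. For both genes the libraries overlapped between genotypes within each organ and between organs within each genotype.

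The comparison of KO with WT asks whether T cells without AMPK alpha1 carry less of the transcripts that drive mitochondrial biogenesis. In spleen 0 of 9 tested members were called, against 1.3% of all 14254 genes tested (185 genes). In mLN 0 of 9 were called, against 0.641% of 14359 (92 genes). With calls this rare across the transcriptome, a count of 0 among 9 genes is close to the background and is not a result about these genes by itself. None of the 9 had an unadjusted p under 0.05 by edgeR in either organ, and DESeq2 also called 0 in both. In no member did the WT and KO libraries separate fully in either organ, while 12% of all genes did so in spleen and 14% in mLN.

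The intervals say how large a difference could have been missed. In spleen 4 members had a positive and 5 a negative log2 fold change, from -0.28 (Tfb2m) to 0.26 (Tfb1m), with a median of -0.02 beside -0.00413 over all genes. The 95% intervals of the fold reached from 0.646 to 1.52 over all 9 members. In mLN 4 were positive and 5 negative, from -0.41 (Tfb2m) to 0.30 (Tfb1m), with a median of -0.10 beside -0.00383 over all genes, and the intervals reached from 0.523 to 1.96. For Tfam the fold of KO over WT lay between 0.88 and 1.10 in spleen and between 0.786 and 1.10 in mLN. For Gabpa it lay between 0.97 and 1.18 in spleen and between 0.995 and 1.39 in mLN. Polg lay between 0.759 and 1.08 in spleen and between 0.877 and 1.27 in mLN. The widest interval was that of Tfb1m in mLN, from 0.771 to 1.96, so a change of Tfb1m of that size was not detectable with these libraries.

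**Figure D2:**
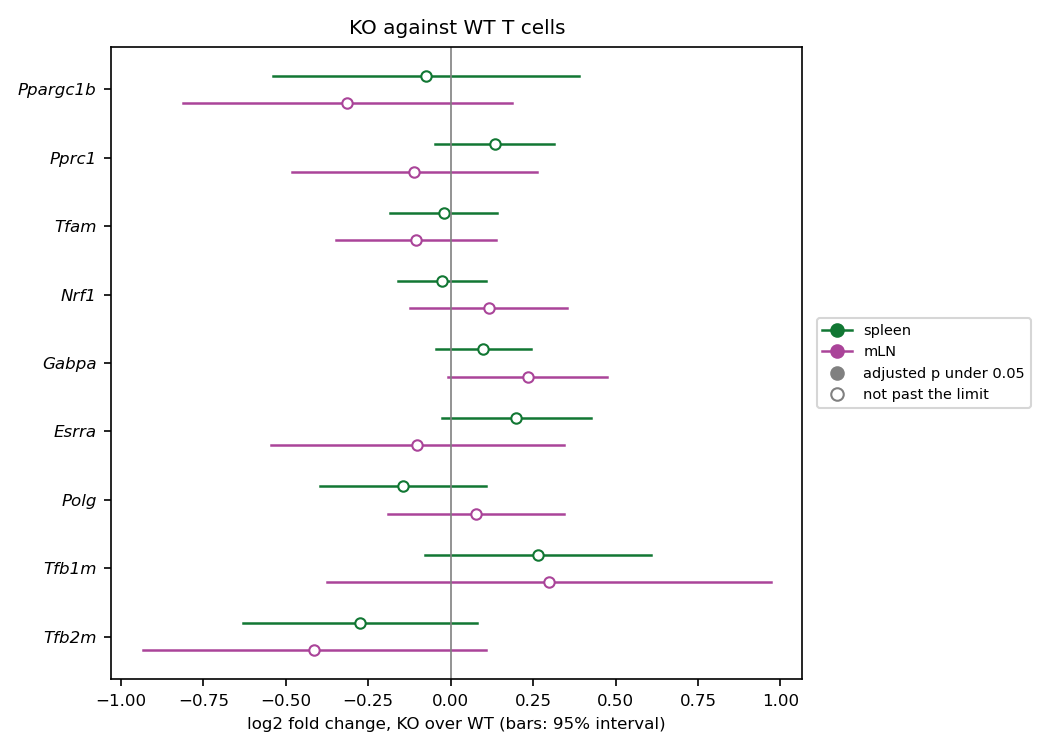
Log2 fold change of KO over WT for the 9 tested regulators in spleen (green) and mLN (purple), with 95% intervals from the edgeR fit; open points did not pass adjusted p of 0.05. Every interval crosses 0, and the widest are those of Tfb1m, Tfb2m and Ppargc1b in mLN.

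Between organs, 3 of 9 members were called lower in mLN than in spleen in WT T cells and 0 higher. Of all 14515 genes tested there, 20.5% were called, 10.8% in the lower direction. Polg fell from 94.4 ± 4.85 CPM (SD, n = 4) to 58.6 ± 7.74 (n = 3), a log2 fold change of -0.70 ± 0.11 (SE) and a fold of 0.617 (adjusted p = 0.00261). Pprc1 fell from 54.5 ± 4.85 to 34.1 ± 4.95 CPM, -0.69 ± 0.12 on the log2 scale or a fold of 0.622 (adjusted p = 0.00514). Gabpa fell from 95.4 ± 5.86 to 77.2 ± 6.45 CPM, a smaller change of -0.31 ± 0.09 and a fold of 0.804 (adjusted p = 0.0338). The WT libraries of these 3 genes did not overlap between organs, nor did those of Nrf1 (111.8 ± 5.13 against 103.6 ± 0.428 CPM, adjusted p = 0.283). Thus 4 of 9 members separated fully in the lower direction, against 15.8% of all genes in that direction and 31.9% in either.

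The Gabpa call lay close to the threshold. Its log2 fold change was -0.37 to -0.26 when each library was left out in turn, but the call was lost without WT spleen replicate 1 (adjusted p = 0.0836), replicate 2 (0.081) or replicate 3 (0.0735), and without WT mLN replicate 2 (0.11) or replicate 4 (0.0826). Polg and Pprc1 were called without any 1 library, with adjusted p of 0.00374 to 0.0117 and of 0.00479 to 0.0228. The WT replicate numbers were taken to pair spleen with mLN from their correlation in these data, although the study does not state it. The main tests carried no block. With the replicate number as a block Ppargc1b was called too, at a log2 fold change of -0.54 (adjusted p = 0.0344).

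In KO T cells 3 of 9 members were again called lower in mLN and 0 higher, against 25.3% of 14240 genes called and 13.9% called lower. Pprc1 fell from 59.8 ± 3.91 CPM (SD, n = 4) to 31.6 ± 5.25 (n = 4), a log2 fold change of -0.94 ± 0.12 (SE) and a fold of 0.521 (adjusted p = 0.000262). Polg fell from 85.4 ± 14.7 to 61.8 ± 3.83 CPM, -0.49 ± 0.12 or a fold of 0.714 (adjusted p = 0.0122). Ppargc1b fell from 14.95 ± 3.52 to 9.65 ± 1.58 CPM, -0.65 ± 0.20 or a fold of 0.637 (adjusted p = 0.0304), although its libraries overlapped. Pprc1 and Polg were the 2 members whose KO libraries did not overlap, where 14.5% of all genes separated in the lower direction and 28.8% in either.

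The call of Ppargc1b also lay close to the threshold. Its log2 fold change was -0.77 to -0.50 when each library was left out in turn, and its adjusted p was 0.0522, 0.109 and 0.0758 without KO spleen replicate 1, 2 or 4, and 0.07, 0.0526 and 0.0713 without KO mLN replicate 1, 2 or 3. Gabpa, at -0.19 with all libraries (adjusted p = 0.118), was called without KO mLN replicate 4 (0.0279), and Esrra, at -0.40 (adjusted p = 0.0712), without KO mLN replicate 3 (0.0307). Tfam, Tfb1m and Tfb2m had positive log2 fold changes in both genotypes, none called: 0.18 and 0.09 for Tfam, 0.28 and 0.30 for Tfb1m, and 0.16 and 0.01 for Tfb2m, in WT and KO. The sign of Tfb2m turned with the GC content and length offset described next (-0.01 in WT and -0.15 in KO), as did that of Nrf1 in WT, from -0.12 to 0.06. Over the 9 members the median log2 fold change was -0.12 in WT and -0.19 in KO, beside 2.74e-05 and 0.00734 over all genes tested.

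Of the 4 genes called lower in either genotype, 3 were also rich in G and C, and GC content and length moved with organ across the transcriptome. Ppargc1b (57.8% GC in its longest transcript), Pprc1 (55.9%) and Polg (52.7%) had the highest GC content of the 10, and Polg the longest merged exons (10742 bases). Over all genes tested, the mLN over spleen log2 fold change correlated with log length at r = -0.147 in WT and -0.101 in KO, and with GC content at -0.0581 and -0.104, as a description across genes that are not independent replicates. With a per-library spline of GC content and length as an offset, a setting chosen after seeing the data, the log2 fold change of Pprc1 was -0.40 in WT (adjusted p = 0.0517) and -0.64 in KO (adjusted p = 0.00211). Polg was at -0.45 in WT (adjusted p = 0.0151) and at -0.24 in KO (adjusted p = 0.129). Gabpa in WT, at -0.26 (adjusted p = 0.0774), and Ppargc1b in KO, at -0.39 (adjusted p = 0.181), were not called under this offset. In WT, the same offset together with the replicate block gave -0.44 for Pprc1 (adjusted p = 0.018) and -0.44 for Polg (adjusted p = 0.0058). The number called thus went from 3 to 1 in each genotype with the offset alone, Polg in WT and Pprc1 in KO, and to 2 in WT with the offset and the block. Myeloid markers were called lower in mLN for 2 of 11 tested in WT and 7 of 10 in KO, against 10.8% and 13.9% of all genes. Of the myeloid markers tested, 8 were negative in WT and 10 in KO. Proliferation markers were called higher for 1 of 12 in WT and 5 of 12 in KO, against 9.7% and 11.4% of all genes. In WT 8 of these 12 were negative, with a median log2 fold change of -0.06, and in KO 2 were, with a median of 0.46. Against the same shares called higher, B cell markers were called higher for 1 of 3 in WT and 2 of 3 in KO. Among them was Ighm (3.53-fold, adjusted p = 0.0253, in WT and 3.07-fold, adjusted p = 0.00284, in KO). Cd8a rose from 0.836 ± 0.707 to 18.6 ± 3.15 CPM in KO (adjusted p = 3.18e-05). For all these markers, their part in these differences was not tested.

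**Figure D3:**
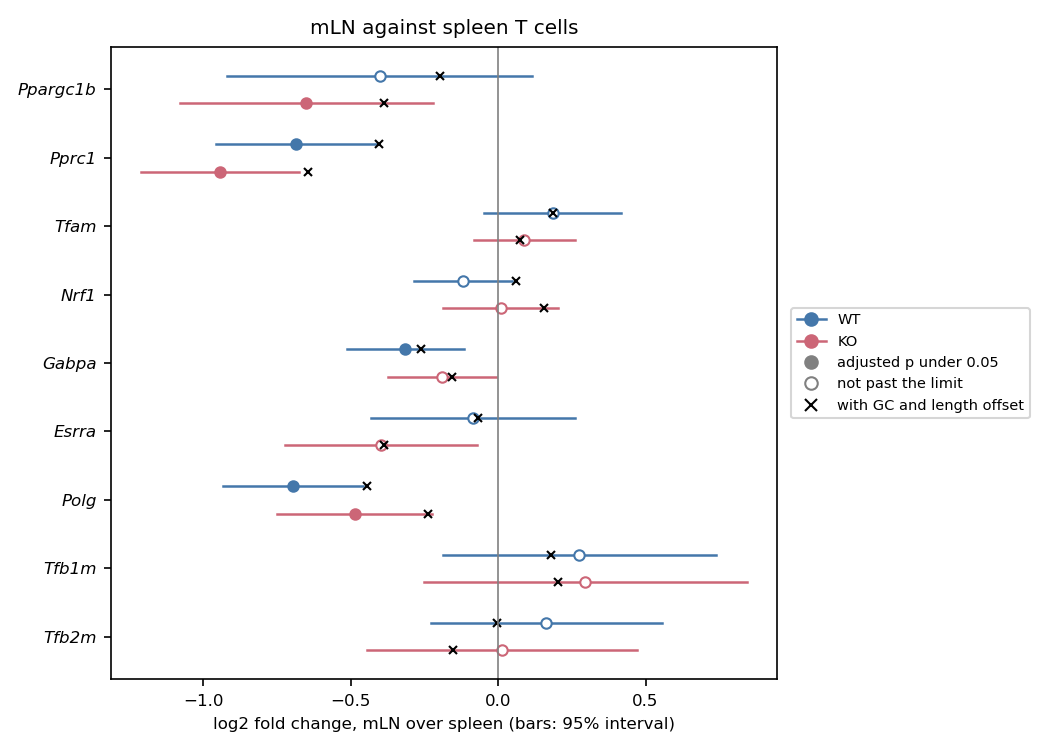
Log2 fold change of mLN over spleen for the 9 tested regulators in WT (blue) and KO (red) T cells, with 95% intervals; filled points passed adjusted p of 0.05, and crosses mark the estimate with a GC content and length offset. Pprc1 and Polg lie furthest left in WT, and the crosses of both sit nearer to 0 than the points.

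Whether the organ difference itself depended on AMPK was asked by the genotype by organ interaction over all 15 libraries. None of the 9 members passed it, as 0 of 15438 genes did (0%), with 652 genes at an unadjusted p under 0.05 by edgeR, none of them a member, and 2 genes called by DESeq2. The interaction log2 values of the members ran from -0.30 (Esrra) to 0.22 (Polg). For Pprc1 the estimate was -0.25, with an interval of the ratio of folds from 0.65 to 1.09. The lower fold of Pprc1 in KO (0.521) than in WT (0.622) is therefore no shown difference between genotypes.

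Exon bases are shared with a protein-coding gene on the opposite strand by 5 of the members, and the strand setting of the counts is not given in the sources used here, so reads at these ends may be uncertain. Polg shares 921 bases with Fanci, Gabpa 397 with Atp5j, Pprc1 177 with Ldb1, Tfb1m 142 with Tiam2 and Esrra 73 with Trmt112. Fanci, the partner of Polg, had mLN over spleen log2 fold changes of -0.17 in WT (adjusted p = 0.586) and 0.09 in KO (adjusted p = 0.69). Ldb1, beside Pprc1, was at -0.11 in WT (adjusted p = 0.535) and fell by 0.41 on the log2 scale in KO (adjusted p = 0.0213). Atp5j, which runs against Gabpa, was at 0.14 in WT and 0.09 in KO, neither called. Trmt112, beside Esrra, rose by 0.40 on the log2 scale in WT (adjusted p = 0.00638) and by 0.33 in KO (adjusted p = 0.00926), and Tiam2, beside Tfb1m, was at 0.19 and 0.67, neither called.

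The other genes of the programme were read from lists chosen by function. Of 37 partners and upstream regulators of PGC-1 and the NRFs, 32 were tested between organs in WT and 34 in KO; 8 were called lower and 2 higher in mLN in WT, and 9 lower and 3 higher in KO, against 10.8% lower and 9.7% higher of all genes in WT and 13.9% and 11.4% in KO. Max, the dimer partner of Myc, fell from 131.9 ± 7.60 to 54.7 ± 7.85 CPM in WT (fold 0.412, adjusted p = 0.000257), and Hcfc1, a chromatin cofactor that PGC-1 proteins bind, fell from 176.6 ± 29.4 to 72.3 ± 3.06 (fold 0.407, adjusted p = 0.000434). In KO, Hcfc1 fell from 189.7 ± 8.99 to 83.3 ± 8.79 CPM (fold 0.433, adjusted p = 4.7e-06), and Gabpb2, a partner subunit of Gabpa, from 123.8 ± 8.11 to 80.7 ± 5.48 (fold 0.643, adjusted p = 0.000211). Hdac5, a deacetylase and AMPK substrate, fell to folds of 0.528 in WT (adjusted p = 0.00139) and 0.587 in KO (adjusted p = 0.000968). With the GC content and length offset 4 were called lower and 4 higher in WT, and 4 lower and 6 higher in KO, so the lean of this list towards lower values did not hold under that setting.

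Known target genes of NRF1, GABP and ERRalpha, mostly subunits of the respiratory chain, went the other way. Of 17 tested, 9 were called higher in mLN and 0 lower in WT, and 9 higher and 0 lower in KO, against 9.7% and 11.4% of all genes called higher. Their median log2 fold change was 0.34 in WT and 0.25 in KO. Cox5b, a subunit of cytochrome c oxidase, rose from 76.1 ± 6.83 to 119 ± 4.76 CPM in WT (fold 1.56, adjusted p = 0.00182) and from 85.6 ± 7.08 to 127 ± 9.79 in KO (fold 1.46, adjusted p = 0.000762). Sdhd, a membrane anchor of succinate dehydrogenase, rose 1.31-fold in WT (adjusted p = 0.00768) and 1.32-fold in KO (adjusted p = 0.00196). With the offset, 8 were called higher in WT and 11 in KO, and 0 lower in both. Mitochondrial protein import genes, 27 tested, were called higher for 9 in WT and 7 in KO and lower for 0, with Tomm20, a receptor of the outer membrane, 1.47-fold higher in WT (adjusted p = 0.00347) and 1.39-fold in KO (adjusted p = 0.00952). The offset left 8 and 7 of them called higher. Pprc1 and Polg thus lay lower in mLN in the same libraries in which respiratory chain and import transcripts lay higher.

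**Figure D4:**
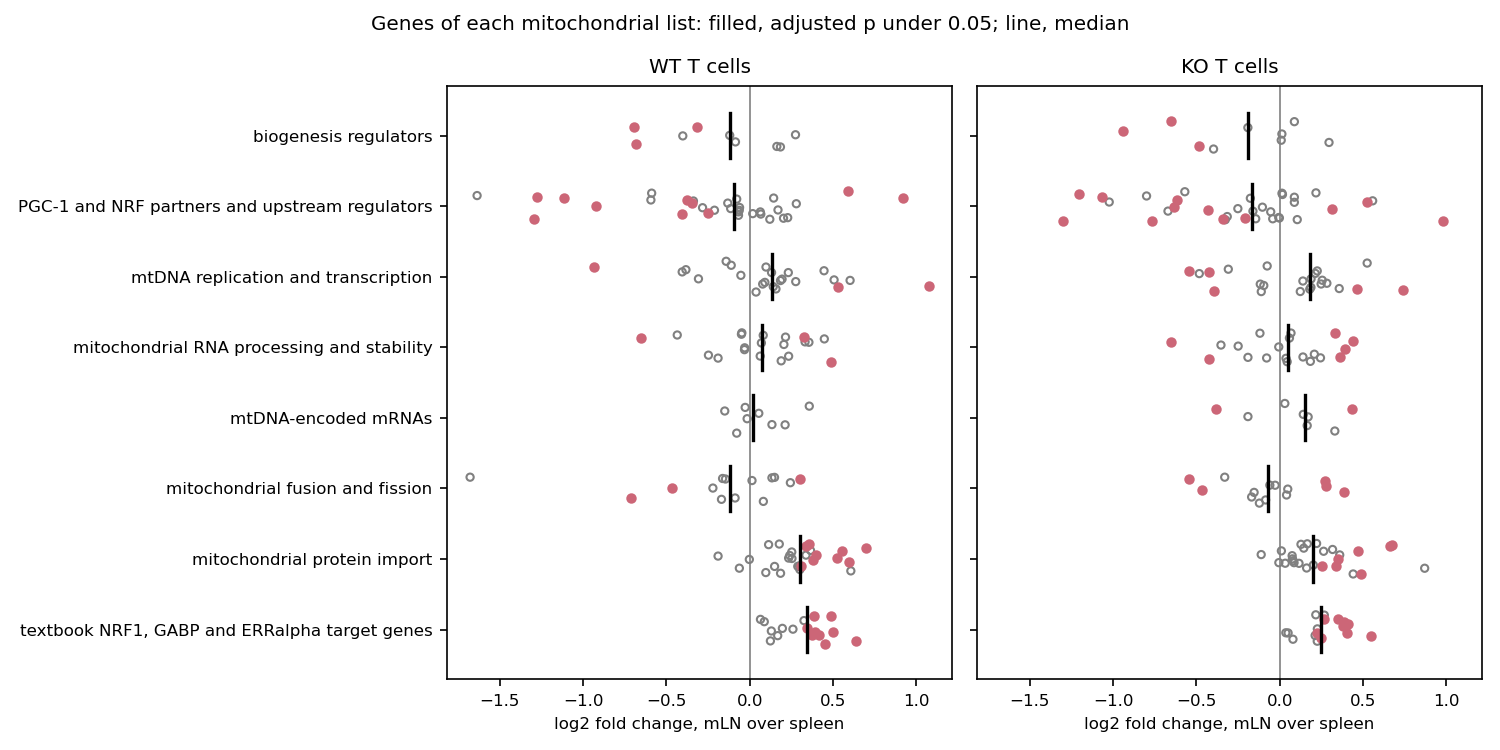
Log2 fold change of mLN over spleen for each tested gene of the biogenesis regulators and of 7 lists of mitochondrial genes, in WT (left) and KO (right); filled points passed adjusted p of 0.05, and black lines are medians. The target gene and import lists sit right of 0, and the called biogenesis regulators left of it.

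Genes that handle mitochondrial DNA and its RNA were mixed. Of 23 genes of mitochondrial DNA replication and transcription, 2 were called higher and 1 lower in WT, and 2 higher and 3 lower in KO, where 20.5% and 25.3% of all genes were called in either direction; the shares called in this list were below those. Polrmt, the mitochondrial RNA polymerase that works with Tfam and Tfb2m, fell from 40.1 ± 5.46 to 21.1 ± 6.69 CPM in WT (fold 0.523, adjusted p = 0.0157) and from 39.4 ± 4.40 to 27.4 ± 6.10 in KO (fold 0.686, adjusted p = 0.0296). Slc25a33, a pyrimidine nucleotide carrier, rose 2.11-fold in WT (adjusted p = 0.0185) and 1.67-fold in KO (adjusted p = 0.0199). The offset left 0 genes of this list called lower in either genotype. Beside the same shares over all genes, of 20 genes of mitochondrial RNA processing 2 were called higher and 1 lower in WT and 4 higher and 2 lower in KO, with Fastk at folds of 0.635 (adjusted p = 0.00274) and 0.636 (adjusted p = 0.000785). Fusion and fission genes, 14 tested, had 1 higher and 2 lower in WT and 3 higher and 2 lower in KO, and Mief1, an adaptor of the fission machinery, was lower in both (folds 0.611 and 0.686, adjusted p = 0.00531 and 0.00377).

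Transcripts made from mitochondrial DNA itself, the end product of this machinery, were readable for 8 of 13 genes, since 5 (mt-Nd4l, mt-Co2, mt-Co3, mt-Atp6 and mt-Atp8) were listed at 0 in every library. Such zeros in genes every cell uses are no measure of expression. Of the 8, none was called between organs in WT, and in KO mt-Nd1 rose 1.35-fold (adjusted p = 0.00289) and mt-Nd6 fell to 0.767 (adjusted p = 0.00362). Of all genes, 20.5% were called there in WT and 25.3% in KO. Between KO and WT 0 of 8 were called in either organ, against 1.3% of all genes in spleen and 0.641% in mLN. All 8 had negative values in spleen, with a median log2 fold change of -0.22, where 50.7% of all genes were negative. The 8 genes summed to 5491, 4748, 5232 and 7120 CPM in WT spleen replicates 1 to 4 and 4840 to 5359 CPM in KO spleen. WT replicate 4 was the highest, and without it 5 of 8 were negative and the median was -0.05.

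Between KO and WT, the partner list and the mitochondrial lists gave 2 calls in all, both in spleen and both among the partners. Of all genes tested, 1.3% were called in spleen and 0.641% in mLN. Myc, the growth factor-driven regulator that also acts on mitochondrial genes, fell from 98.2 ± 25.3 CPM (SD, n = 4) in WT to 49.8 ± 10.8 (n = 4) in KO (fold 0.507, adjusted p = 0.0453). Max rose from 131.9 ± 7.60 to 164 ± 4.57 CPM (fold 1.24, adjusted p = 0.0453). In mLN they were at -0.91 (Myc, adjusted p = 0.077) and 0.54 (Max, adjusted p = 0.0957) on the log2 scale, not called, and their interaction was not called. Of the marker lists, Acta2, the smooth muscle actin, rose in KO from 0.701 ± 0.0292 to 2.15 ± 0.78 CPM in spleen (adjusted p = 0.0448) and from 0.789 ± 0.0765 to 5.10 ± 1.73 in mLN (adjusted p = 0.0326), and Pax5, a B cell transcription factor, from 0.134 ± 0.116 to 3.02 ± 1.19 CPM in mLN (adjusted p = 0.0372). The target gene list had 0 of 17 called in each organ, the import list 0 of 27, and mitochondrial DNA replication and transcription 0 of 23. Beside the shares of all genes, these counts of 0 are close to the background and are no result about the lists. Of the 23, 16 were negative in spleen and 17 in mLN, where 50.7% and 50.4% of all genes were.

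Which genes moved most like the members across all 15 libraries was read as Pearson's r of log2 CPM among 9646 well-expressed genes, as a description in which the organ difference is shared. For Pprc1 these were Fam160b2 (r = 0.981), Tnrc6c (0.974) and Cyth1 (0.965), and for Gabpa Snai3 (0.954), Tmed8 (0.944) and Cbx5 (0.941). For Polg they were Zfp687 (0.941), Trappc9 (0.935) and Hjurp (0.928), and for Tfb2m Cdadc1 (0.903), Elp3 (0.895) and Eri2 (0.885). Among the members, Pprc1 and Polg had an r of 0.819 over the 15 libraries, which was 0.24 once each group's mean was taken off. Nrf1 and Gabpa had 0.621 and 0.699, and both were at their KO mLN maximum in replicate 4. Pprc1 and Tfb1m went from -0.223 to 0.659, and Gabpa and Tfb2m stayed negative at -0.616 and -0.497.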

How the data were processed

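RNA of sorted donor CD4+ T cells was sequenced in single-end libraries made with a low-input kit. The authors demultiplexed the reads (bcl2fastq 2.19.1.403), aligned them with STAR 2.6.1a to GRCm38 with GENCODE M23 and deposited STAR's raw counts per gene (the strand setting is not given in the sources used here). They used DESeq2 1.22.2. One WT mLN sample was left out by them for quality. Gene names and lengths came from GENCODE M21 (55240 of 55421 identifiers matched). The 4 summary entries of each file stayed out of totals.

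Counts were tested with edgeR 4.0.16 (filterByExpr, TMM, quasi-likelihood test, adjusted p under 0.05) in R 4.3.3, with DESeq2 1.42.0 as an alternative, and the script was tested on simulated data. Other alternatives were a block on replicate number, a fold minimum, scaling by RLE or by library size alone, dropping the filter or asking 10 counts of each sample, fitting the 15 samples jointly, and leaving out each library. Those added after seeing the data were a GC content and length offset (natural splines of each library's deviations), alone and with the block, and leaving out both KO mLN libraries with 8 or more Ppargc1a reads.

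Deviations of same-numbered WT spleen and mLN samples correlated at 0.258, 0.243 and 0.291, so these numbers were taken as pairs. The study does not state this pairing. Numbers of KO samples (0.0258 to 0.259) and of WT with KO were not taken as pairs. Even so, KO replicates 2 (0.17) and 4 (0.259) correlated best with their own number. Members and lists were chosen with earlier results of these data known. Named were all members, Prkaa1, Prkaa2, up to 4 called genes of lowest p per list and comparison, and the 3 most similar genes for 4 members. Intervals cover counting and replicate error of these samples only.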

Additional observations from a re-analysis of the deposited data

Results flagged for a closer look

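Nrf1 in KO mLN had 1 library apart from the others: replicate 4 was at 133.7 CPM and the nearest of the other 3 at 106.1 CPM, a gap of 0.918 of the range of the group. It was the only case flagged among 30 groups of 4 libraries examined, and chance gives about 1 in 20. Groups with at most 3 reads in every library were counted among the 30 but could not be flagged. Ppargc1a in WT spleen (0, 1, 0 and 0 reads) and in KO spleen (1, 1, 0 and 0) were such groups. Replicate 4 of KO mLN also had the highest Gabpa value of that group, 105 CPM. Without that library the KO over WT log2 fold change of Nrf1 in mLN was 0.03 (edgeR adjusted p = 0.936), against 0.12 with all libraries (0.668).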

How the results depend on the processing

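With 7 to 15 libraries a fit and 48 to 124 reads a library for Tfb1m, moderate changes of the least counted members were not detectable, and the groups of 3 and 4 limit every estimate. The number of members called stayed at 0 in both KO against WT comparisons and in the interaction under every alternative run, also with DESeq2 and without both KO mLN libraries with 8 or more Ppargc1a reads. Between organs it was 0 in WT and 0 in KO when a log2 fold change above 1 was also required, and 1 and 1 with the GC content and length offset, and 2 in WT with that offset and the replicate block; leaving out each library in turn gave 2 to 3 in WT and 2 to 4 in KO. Of 774 member fold changes under alternatives, 726 kept their direction and side of the threshold, 17 lost and 3 gained the call, and 28 changed sign, none of them called.

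Signs that turned when a library was left out spanned, as log2 fold changes of KO over WT, -0.23 to 0.085 for Ppargc1b and -0.062 to 0.017 for Tfam in spleen, and -0.021 to 0.18 for Polg, -0.19 to 0.012 for Pprc1 and -0.22 to 0.00042 for Esrra in mLN. Of mLN over spleen they spanned -0.17 to 0.035 for Esrra in WT, and -0.079 to 0.053 for Nrf1 and -0.12 to 0.13 for Tfb2m in KO, and of the interaction -0.17 to 0.00139 for Tfam and -0.20 to 0.19 for Tfb1m. Without both KO mLN libraries with 8 or more Ppargc1a reads Esrra was at 0.048 in mLN. With no filter Nrf1 was at -0.0063 and Tfb2m at -0.0021 in KO. With the GC content and length offset Nrf1 was at 0.061 and Tfb2m at -0.0055 in WT, and Tfb2m at -0.15 in KO; with the replicate block added, Nrf1 was at 0.045 and Tfb2m at -0.029 in WT. The cause was not tested.

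Over all genes, calls of KO against WT in spleen were 185, and 784 with DESeq2, 1422 with no filter, 64 with the fold minimum, 85 with all samples in 1 fit and 12 to 324 without single libraries. In mLN they were 92, and 563, 913, 47, 500 and 4 to 117. Between organs the fold minimum left 723 of 2980 in WT and 763 of 3602 in KO, and leaving out WT spleen replicate 1 left 1816. The interaction gave 0, and 2 with DESeq2 and 112 with no filter.

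WT and KO share only replicate numbers, and the deviations of same-numbered samples correlated at -0.21 to 0.146. With the replicate block the calls over all genes were 17 in spleen, 1 in mLN, 4351 between organs in WT, 3814 in KO and 3 for the interaction, and the members called were 0, 0, 4, 3 and 0. In WT between organs, where the numbers were taken as pairs, the block changed the call of Ppargc1b and of no other member.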
